A study of Drosophila melanogaster with 4 samples.

Results

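Peaks of the transcription factor Paired (Prd) were described in windows around 10 segmentation genes of Drosophila melanogaster. These genes, known as targets of Prd, are odd, slp1, slp2, wg, prd, eve, en, gsb, hh and run. The peaks were found by chromatin immunoprecipitation and sequencing (ChIP-seq). In this method, DNA bound to an antibody's target is sequenced, and regions with more reads than the background are called as peaks. A fixed window was set around each gene on release 5 of the genome, with slp1 and slp2 in the same window, and a peak belonged to a window when its middle lay in it. The 9 windows, of 100 to 120 kb each and 930 kb in all, held 12 of the 1348 peaks of the list, or 12 of the 777 peaks that lay on the 6 assembled arms, namely X, the left and right arms of the second and the third chromosome, and 4.

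The study sets 2 ChIP libraries against 2 libraries of input DNA, both from whole embryos collected over 0 to 12 h after egg laying. All libraries share 1 strain, labelled Y cn bw sp. Its alleles are y[1] with oc[R3.2], then Gr22b[1] with Gr22d[1] and cn[1], CG33964[R4.2] with bw[1] and sp[1], and finally LysC[1] with lab[R4.2], MstProx[1] with GstD5[1], and Rh6[1]. The antibody RF12 is an affinity-purified polyclonal rabbit antibody against the C-terminal part of Prd, residues 355 to 552 and 572 to 613, which leaves out the paired repeat. Each collection mixes 12 h of development and all cells of the embryo, so a peak carries no information on stage or cell type. The list has no value per library. Sequencing depth is unknown, no spread between replicates could be measured, and intervals given here cover counting error with peaks taken as independent.

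Segmentation of the fly embryo runs through a cascade in which pair-rule genes, expressed in stripes, set the stripes of the segment polarity genes that mark each segment's borders. Prd belongs to the pair-rule class and binds DNA through its paired domain and its homeodomain. It is known to activate segment polarity genes such as en, wg and gsb, and to maintain late eve stripes.

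Of the 9 windows, 7 held at least 1 peak, and the windows of prd itself and of hh held none. Windows of the same sizes, laid at 10 kb steps along the same arms, held a peak in 40.9% of cases, so 3.68 of 9 would be the mean. These same-sized windows overlap, so a single peak counts in several of them, and they include the 9 windows themselves. The 12 peaks compare with a mean of 6.09 ± 3.30 (SD) over same-sized windows, a ratio of 1.97 (95% exact Poisson interval of the count, 1.02 to 3.44). The SD takes the windows as placed independently. Counts in same-sized windows were more spread than Poisson counts, with an SD of 1.11 at a mean of 0.72 for the odd size on 2L. The Poisson interval, which takes peaks as independent, is therefore too narrow, and its lower limit does not establish an excess. The highest counts were those of odd and gsb, with 4 and 3 peaks. The other 7 windows held 5 peaks, 1 in each of 5 windows, where the means were 4.68 peaks and 2.83 windows with a peak. The odd and gsb windows were set aside for their counts, which lowers the ratio of the rest, 1.07, by construction.

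**Figure D1:**
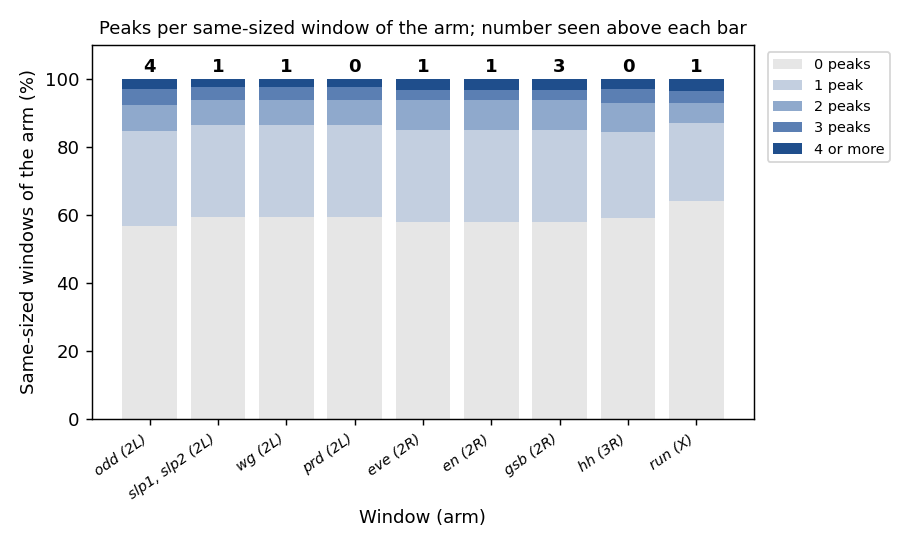
For each window, the stacked bar gives the percentage of same-sized windows on its arm that held 0, 1, 2, 3 or at least 4 peaks, and the number above it is the count in the window itself. The odd window with 4 peaks and the gsb window with 3 lie in the thin upper parts of their bars, and the prd and hh windows lie in the large lowest part.

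Among the windows of the pair-rule genes, that of odd held the most peaks. The gene odd encodes a zinc-finger transcription factor of the pair-rule class. Its window, 2L from 3.55 to 3.66 Mb, held 4 peaks where the mean of same-sized windows on 2L was 0.72 ± 1.11 (SD), 43.4% of them held at least 1 peak and 2.97% held as many. The peaks lay from 3618815 to 3619148 with a score of 27.14, from 3633988 to 3634204 with 13.68, from 3651651 to 3652055 with 12.37, and from 3657335 to 3657729 with 84.64. All 4 stood to the right of the window's centre, 14.0 to 52.5 kb from it and spread over 38.9 kb.

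The score is the authors' own value per peak, and the deposited list does not name the quantity. Most scores follow minus log10 of a Poisson tail with a common mean of 56.19 reads, so a number of reads k can be inferred for them, which is not an observed count. The last peak of the odd window ranked 21 of 1348 in the list, with an inferred k of 258 reads or 4.59 times the mean. It stood 2.47 kb inside the window's end and 5.68 kb from the peak before it, the only one of the 12 whose score was off this ladder of values. Of windows of this size on 2L, 1.92% held a peak at least as high. That share counts overlapping windows, with those over this peak itself among them, so it rests on few peaks. The first and second peaks had a k of 156 and 122 reads, or 2.78 and 2.17 times the mean.

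In the RefSeq gene table, which is on release 6 and was used for names and order alone, the protein-coding genes next to odd are sob, CG43815 and drm on the left and Ugt36A1, CG15418 and for on the right. The genes sob and drm are relatives of odd in the same zinc-finger family, and for encodes a cGMP-dependent protein kinase. A release 5 annotation was not used here, so the place of each gene in its window was not checked and peaks were not assigned to single genes.

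The genes slp1 and slp2 encode forkhead transcription factors that are expressed together and act as pair-rule and segment polarity genes. Their shared window, 2L from 3.78 to 3.88 Mb, held 1 peak from 3786030 to 3786537, scoring 18.79 with a k of 136 reads or 2.42 times the mean. It lay 6.28 kb inside the left end of the window and 93.7 kb from the right end. A higher peak stood just outside, from 3889730 to 3890299, 10.0 kb past the right end, scoring 45.41 with a k of 193 reads or 3.43 times the mean. On the left the nearest outside peak was 17.1 kb away and scored 12.8. At least 1 peak was held by 40.6% of same-sized windows on 2L, so the count at slp1 and slp2 was ordinary for the arm.

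The gene run encodes the DNA-binding subunit of a Runt-domain factor and is a pair-rule gene on X. Its window, X from 20.5 to 20.62 Mb, held 1 peak from 20503051 to 20503502, scoring 33.17 with a k of 169 reads or 3.01 times the mean. This peak lay 3.28 kb inside the left end. At least 1 peak was held by 35.8% of same-sized windows on X. The next peak on X, from 20631366 to 20631757, was 11.6 kb outside the right end and scored higher, at 43.8 with a k of 190 reads. The centre of the run window thus had no peak within 50 kb. To the left of the peak the next one was 1282 kb away. Of the 116 gaps between neighbouring peaks on X, this gap was the second widest, against a median of 83.7 kb.

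The window of eve, 2R from 5.82 to 5.92 Mb, held 1 peak, which was below the arms' medians in width and score but within their quartiles. The gene encodes a homeodomain repressor whose late stripes are a known target of Prd. The peak ran from 5876310 to 5876585, 6.45 kb from the window's centre. It scored 15.79 and was 276 bp wide, and 42.1% of same-sized windows on 2R held a peak. Its inferred k was 128 reads or 2.28 times the mean, below the median of 2.53 times for ladder scores on the arms. Its score was reached by 56.2% of the peaks on the arms, and its width by 65.4%. The nearest peaks outside lay 203 and 220 kb from the window's ends, so this was the sole peak over 523 kb. In the release 6 gene table, TER94 is the gene next to eve on the right and CG12134 on the left.

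The prd window, 2L from 12.03 to 12.13 Mb, held no peak, and none lay near it. The closest peaks were 465 kb to the left, with a score of 13.34, and 325 kb to the right, with 9.25. These lie 890 kb apart, and of the 152 gaps between neighbouring peaks on 2L this was the second widest, against a median of 82.9 kb. An empty window of this size was common on 2L, at 59.4%. The second highest peak of the whole list, with a score of 138.69, stood in the 1 Mb centred on the window but beyond this gap.

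Of the windows of the segment polarity genes, that of gsb held the most peaks. The product of gsb has the same pair of DNA-binding domains as Prd, and Prd is known to activate the gene. Its window, 2R from 20.9 to 21.0 Mb, held 3 peaks. Same-sized windows on 2R had a mean of 0.69 ± 1.07 (SD) peaks, 42.1% held at least 1 and 6.13% held 3 or more. They lay from 20925800 to 20926694 with a score of 19.17, from 20963638 to 20964249 with 27.14, and from 20972945 to 20973588 with 57.76. The inferred k was 137, 156 and 215 reads, or 2.44, 2.78 and 3.83 times the mean. The second and the third stood 9.32 kb apart, on the right of the window's centre.

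All 3 gsb peaks were wide, at 895, 612 and 644 bp. Widths as large as these were reached by 1.80%, 8.75% and 6.82% of the peaks on the arms. A further peak stood 0.74 kb outside the left end of the window, from 20899071 to 20899457, with a score of 21.98. On the right, 70.6 kb past the end, lay the highest peak of the whole list, from 21070286 to 21070992, scoring 166.55 with a k of 368 reads. Neither was counted among the 12. Their widths were 387 and 707 bp. The next peaks further out, on the left and on the right, were 878 and 1511 bp wide. Wide peaks were thus not confined to the gsb window. Next to gsb in the release 6 gene table are gsb-n, its close relative with the same pair of DNA-binding domains, and gol.

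The window of en, 2R from 7.36 to 7.46 Mb, held 1 peak close to its centre. The gene encodes a homeodomain repressor that marks the posterior compartment of each segment. The peak ran from 7415573 to 7415964, 5.77 kb from the centre, scoring 20.36 with a k of 140 reads or 2.49 times the mean. Its score was reached by 42.0% of the peaks on the arms, and 42.1% of same-sized windows on 2R held a peak. To the right no peak followed for 538 kb, and to the left a peak of score 20.76 stood 36.9 kb outside the window. The gene inv, the relative of en with which it is co-expressed, is its left neighbour in the release 6 gene table.

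Of the 2 genes that encode signals, wg had a peak in its window and hh had none. The gene wg encodes a Wnt ligand expressed in the cells in front of the en stripe, and its window on 2L from 7.25 to 7.35 Mb held 1 high peak. It ran from 7281458 to 7281881, 18.3 kb to the left of the centre, with a score of 75.52, rank 30 in the list, and a k of 244 reads or 4.34 times the mean. A peak at least as high was held by 3.06% of same-sized windows on 2L, counting overlapping windows and those over this peak itself. The peak stood alone, with the next ones 285 kb to the left and 171 kb to the right. In the release 6 gene table wg is flanked by other Wnt genes, Wnt4 on the left beyond CG31909 and Wnt6 and Wnt10 on the right.

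The gene hh encodes the Hedgehog ligand, which is made by the en-expressing cells. Its window, 3R from 18.9 to 19.0 Mb, held no peak. One of score 10.14 stood 27.0 kb past its right end, and the nearest on the left was 718 kb away. The gap of 845 kb was the second widest of 201 on 3R, where the median was 55.2 kb. Same-sized windows on 3R were empty in 59.1% of cases. The windows of prd and hh thus lay in the second widest gap of their arm, and the peak in the run window bordered that of X. This was seen with the values known, and an empty window lies in a gap by definition. Wide gaps also take up more of an arm, so ranks among gaps overstate how rare such a place is. At the other windows, the widest gap that touched the window ranked from 6 of 145 at en to 69 of 145 at gsb.

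**Figure D2:**
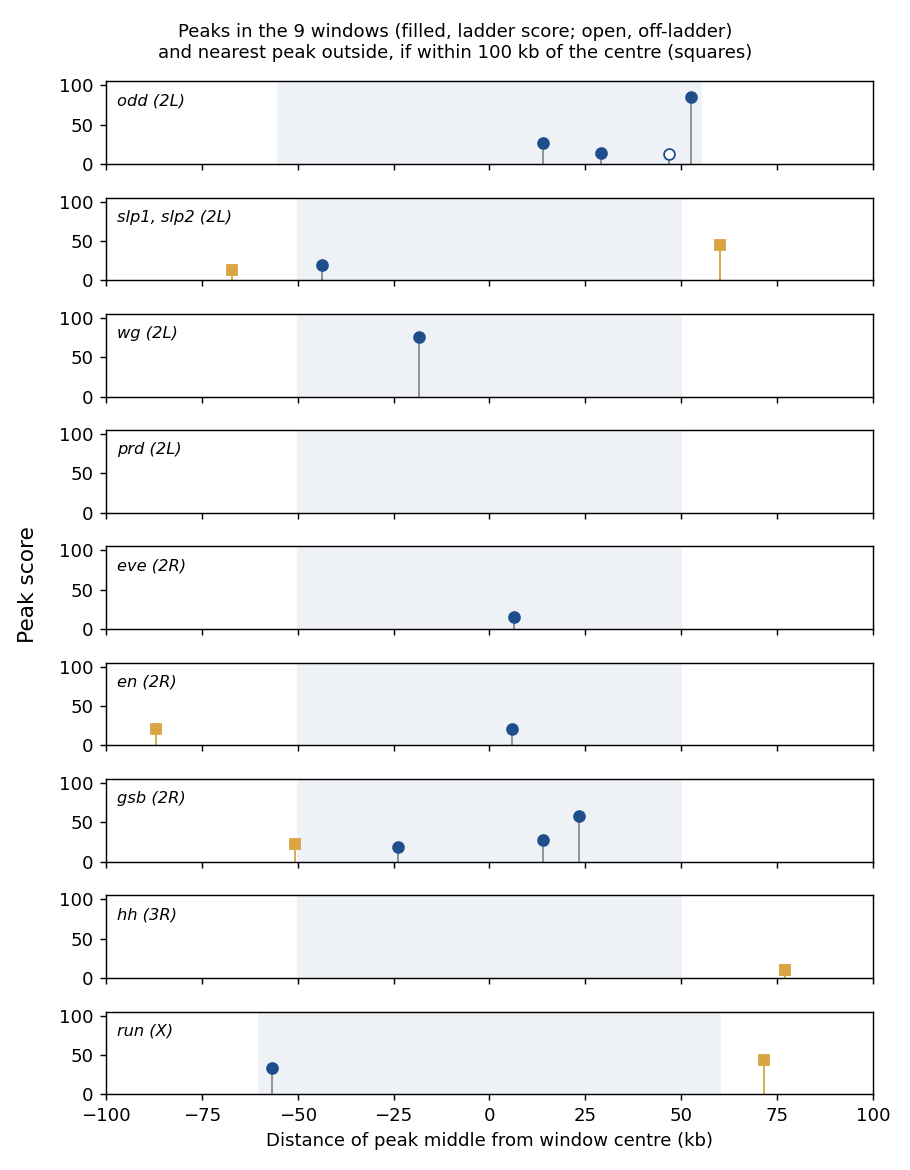
Each row is 1 window, shaded, with the distance of a peak's middle from the window's centre in kb on the horizontal axis and its score on the vertical axis. Circles are the 12 peaks, filled where the score lies on the Poisson ladder, and squares are the nearest peaks outside where these lie within 100 kb of the centre. The highest circles are those of odd at 84.64 and wg at 75.52, and the rows of prd and hh have no circle.

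Around the windows, the number of peaks in 1 Mb differed between genes. In the 1 Mb centred on each window there were 14 peaks at odd and 13 at slp1 and slp2, regions that overlap, against a mean of 6.60 ± 3.26 (SD) per Mb window on 2L. There were 10 at wg and 7 at prd. On 2R there were 8 at en and 5 at eve, where the mean was 6.80 ± 3.51. At gsb there were 8, but that stretch runs past the highest peak end of 2R and covers 0.691 Mb of it, which gives 11.6 per Mb. At run there were 4, against 5.03 ± 2.88 on X, and at hh 3, against 7.12 ± 4.81 on 3R. Of the 14 at odd, 10 lay outside its window. Whether the count in the window goes with that of the region was not tested.

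Most of the 12 peaks were wider than the median peak of the arms, while their scores were not separated from those of the arms. Their median score was 23.75 (96.1% interval from order statistics, 15.79 to 57.76), against 17.26 on the 6 arms, which lies inside that interval. It was 16.92 for the other 606 peaks of the 4 arms that hold a window. A score above the arms' median was held by 9 of the 12 peaks, and 3 peaks, those of odd, wg and gsb, scored above 50, as did 11.1% of the peaks on the arms. Their median width was 414.5 bp (334 to 612 bp), against 324 bp on the arms, and 10 of 12 were wider than that. The arms' median width lay below this interval, but without the gsb window the median was 395 bp (276 to 452 bp), an interval that holds it. Leaving out the window of odd, slp1 and slp2, wg, en or run also gave an interval that started at 276 bp. The coverage of these intervals was higher, at 99.2% without odd and 98.8% without each of the others, against 96.1% without gsb. The peaks covered 5554 bp, or 0.597% of the windows, where peaks covered 0.244% of the 4 arms.

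**Figure D3:**
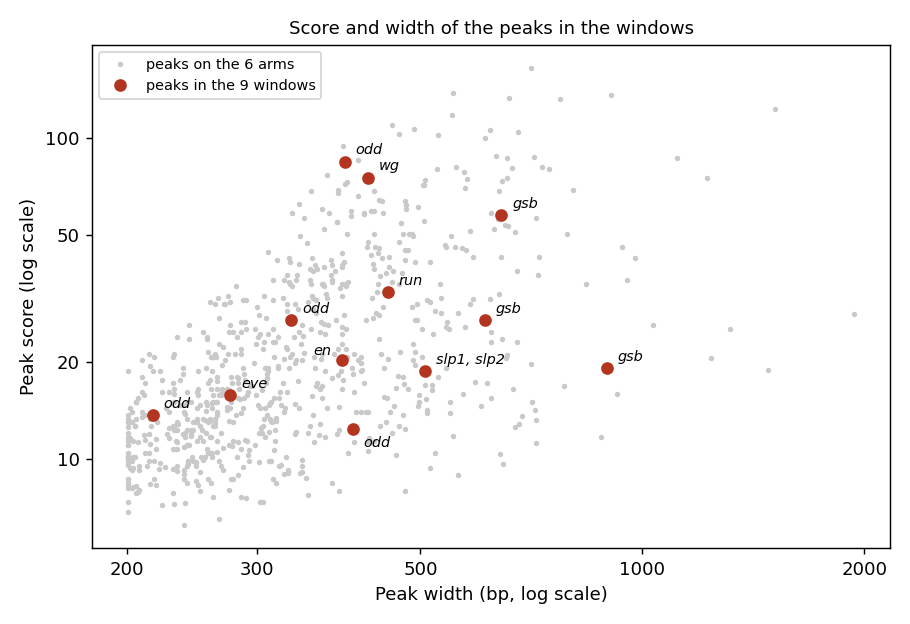
Each point is 1 peak, with its width in bp on the horizontal axis and its score on the vertical axis, both on log scales. Grey points are the 777 peaks on the 6 arms and red points the 12 peaks in the windows, which run from 217 bp at odd to 895 bp at gsb and from a score of 12.37 to 84.64, both at odd.

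Of the 12 peaks 11 had a ladder score, or 91.7% (exact Clopper-Pearson interval 61.5% to 99.8%), against 72.1% of the peaks on the arms, a share within that interval. Inferred k ran from 122 to 258 reads with a median of 156, against 142 on the arms. The first peak in the odd window and the second in the gsb window had the same score of 27.14 and the same k. A neighbour under 10 kb away was held by 4 of 12 peaks, 2 at odd and 2 at gsb, or 33.3% (9.92% to 65.1%), and by 33.6% of the peaks on the arms. These 4 peaks form 2 pairs, 5.68 kb apart at odd and 9.32 kb apart at gsb. The interval takes them as independent and is therefore too narrow, though already wide since it rests on 12 peaks.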

How the data were processed

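DNA from 2 anti-Prd ChIP and 2 input libraries was sequenced. The submitters' processing notes name MACS2, BWA, build BDGP5 and CASAVA, in versions 1.7.0.2 and 1.7.0.3. Per the file headers, the authors deposited 1 list of peaks on FlyBase release 5 with 1 score each. Whether replicates were pooled, the thresholds and the use of the input were not stated there. Depth per library is unknown, and the list names no library, so no test between samples could be run.

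The windows, the genes and the lists were chosen with earlier results of these data known, so no p-value is given. Every peak with its middle in a window was named. Same-sized windows were enumerated at 10 kb steps from the start of each arm to its highest peak end, which stood for its length. The Poisson mean of the scores was fitted on all 1348 peaks by the share within 0.01 of −log10 P(X ≥ k), where 61.9% of the scores lay, and intervals around the ladder values of this width cover 5.56% of the score scale. Intervals of counts and shares are exact, at 95%. Those of medians come from order statistics, with a coverage of 96.1% for the 12 peaks. The enumeration of windows, on uniformly placed peaks, and the fit of the Poisson mean were tested on simulated data. The intervals were not. Python 3.11.15, numpy 2.4.6, pandas 2.3.3 and scipy 1.17.1 were used. Coordinates were not converted between releases. All 10 genes were found by symbol in the gene table. Motifs and sequences were not used here, nor were peaks near other segmentation genes.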

Additional observations from a re-analysis of the deposited data

How the results depend on the processing

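Of 56 alternatives to 6 results, 53 stayed within the interval of their result, or for the count of windows with a peak within 1.5 times. These intervals are wide, since they rest on 12 peaks. Several alternatives, such as merging close peaks or leaving out an empty window, keep the same 12 peaks. The count of 53 is therefore no measure of how stable the results are. The ratio of the 12 peaks to same-sized windows ran from 1.07 to 2.68 over 19 alternatives. It was 2.68 for the 50% of peaks with the highest scores (10 in the windows), 2.54 for ladder peaks alone, 1.67 with windows widened by 50 kb on each side (20 peaks), 1.49 without the odd window and 1.67 without the gsb window. It was 1.07, the lowest value, without both, which were left out for their high counts. Windows with a peak numbered 5 when the central 50% was used, which drops slp1 and slp2 and run, and 8 when widened, where same-sized windows gave means of 2.14 and 5.72. The median score stayed between 20.36 and 27.14 and the median width between 393.5 and 480 bp. Among the exceptions, the share with a close neighbour was 0% at 5 kb and 66.7% at 50 kb, where the arms had 27.7% and 61.6%. The share of ladder scores was 58.3% within 0.005, against 41.6% on the arms. At the main limits these shares were 33.3% against 33.6% on the arms for a close neighbour, and 91.7% against 72.1% for ladder scores. The close neighbours at 10 kb were 2 pairs, 5.68 and 9.32 kb apart, which a limit of 5 kb drops together. So few pairs show neither a likeness to the arms nor its loss. Ladder peaks alone and leaving out odd and gsb together were added later, with the values known. No paired analysis was possible because the deposited peaks carry no value per library, and replicates could not be left out. The planned motif share in promoters and the peaks near other segmentation genes were not run. Signal below the authors' threshold is outside this list, so an empty window does not show that Prd was absent there.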
